A study of Mus musculus with 12 samples.

Results

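The ephrin, Slit and netrin families are guidance cues and receptors that steer growing axons, and 37 of their genes were followed here in mouse dorsal root ganglia before and after a nerve injury. The 37 were taken by gene symbol from the 24060 genes of the expression files, and each was present. They comprise 15 ligands (5 ephrin-A, 3 ephrin-B, 3 Slit, 2 secreted netrin and 2 netrin-G genes) and 22 receptors (8 EphA, 5 EphB, 3 Robo and 6 netrin receptor genes). Dorsal root ganglia hold the cell bodies of the sensory neurons together with satellite glia, Schwann cells, vessels and macrophages. All mice were male, adult C57BL/6J animals, 9 to 10 weeks old. Ganglia were from naive mice, or from mice 1, 3 or 7 days after spared nerve injury (SNI), a neuropathic pain model that cuts and ties the tibial and common peroneal nerves and spares the sural nerve. Each of the 4 groups had 3 RNA-seq libraries. The labels name no sham operation in these groups and do not say whether each library is 1 animal or pooled animals, and the p-values measure the spread between these libraries.

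Ephrins are membrane-bound ligands, anchored by a lipid tail (ephrin-A) or crossing the membrane (ephrin-B). Their Eph receptors are tyrosine kinases that mostly make a growing axon turn away on contact. Slits are secreted repellents read by Robo receptors, and the netrins attract through Dcc and neogenin or repel through the Unc5 receptors, whereas the netrin-G proteins stay on the axon membrane and bind netrin-G ligands on the partner cell. In sensory ganglia these families are best known for axon branching, path finding and target choice during development, and many of them remain expressed in the adult.

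Levels are given as RPKM, reads scaled to gene length and library size, so they can be set side by side between genes. A gene was tested where it reached 1 RPKM in at least 3 of the 12 libraries. Of the 37 genes, 28 passed and 9 did not. Differences are log2 fold changes of RPKM + 0.5 after scaling the libraries to each other, with their standard error (SE), and a gene is said to rise or fall only at an adjusted p under 0.05 in limma, a linear model over all 14195 tested genes. On that scale the change of a gene near or under 1 RPKM is understated.

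The libraries held 13626893 to 17952865 reads, and a single read over 1 kb corresponds to 0.0557 to 0.0734 RPKM. The 12 markers of sensory neurons, the 6 of satellite glia and the 8 of Schwann cells were all detected. Skeletal muscle transcripts were raised in 2 libraries: the summed level of 8 muscle markers was 35.6 RPKM in naive replicate 1 and 26.9 RPKM in day 7 replicate 2, against at most 5.91 RPKM in the other libraries. The labels name no sequencing batch.

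Of the guidance genes, 2 fell after injury and none rose. Ntng1 (netrin-G1) fell on each of the 3 days and Epha6 at day 3. At day 1, 1 of the 28 tested genes was called (3.57%), against 3.43% of all tested genes. At day 3 it was 2 of 28 (7.14%), against 5.67% of all genes, and at day 7 1 of 28 (3.57%), against 2.92%. Counted in either direction, the share called was thus near the background on each day. All of these calls were falls, and falls alone were 0.831%, 1.95% and 0.599% of all tested genes. With 1 or 2 genes called a day, the shares were not tested against each other. In a test over all 4 groups at once, Ntng1 (adjusted p = 0.00766) and Epha6 (adjusted p = 0.0368) were called in limma, against 4.78% of all genes. This last call of Ntng1 was lost without naive replicate 3 (0.0536) or both muscle-bearing libraries (0.0566). That of Epha6 was lost with no expression filter (0.0717), without both muscle-bearing libraries (0.118), and without naive replicate 1 (0.0825), 2 (0.128) or 3 (0.148), day 1 replicate 1 (0.0712), day 3 replicate 1 (0.0788), 2 (0.0821) or 3 (0.0912) or day 7 replicate 2 (0.0596). The 3 comparisons share the same naive libraries.

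As a description of the list, with no test, the median log2 fold change of the 28 genes was -0.07 at day 1, -0.13 at day 3 and -0.10 at day 7, against -0.01, 0.00 and 0.00 over all tested genes. The estimate was below 0 for 15, 21 and 19 of the 28 genes. At an unadjusted p under 0.05 there were 6, 7 and 5 genes (21.4%, 25% and 17.9%), against 14.9%, 17.8% and 12.9% of all tested genes. In deposited RPKM 9, 8 and 5 genes lay wholly below naive (32.1%, 28.6% and 17.9%), against 11.7%, 12.7% and 7.13% of all tested genes. Wholly above naive were 2, 2 and 3 genes (7.14%, 7.14% and 10.7%), against 11%, 13.8% and 11%. After scaling, 4, 7 and 3 genes lay wholly below naive and 2, 2 and 3 wholly above it. No share over all genes was computed after scaling, so these counts cannot be set against a background. Such separation from naive is thus no call. Summed over the 22 receptors, the level was 118.9 to 126.2 RPKM in the naive libraries, 102.0 to 111.3 at day 1, 96.6 to 101.7 at day 3 and 99.9 to 119.0 at day 7. In deposited RPKM the naive receptor sum lay above all day 1 and day 3 libraries and overlapped day 7 through its replicate 1. After scaling, naive (113.4 to 131.2) also overlapped day 1 (98.3 to 117.0) and stayed above day 3 (93.5 to 101.1). The mean receptor sum in deposited RPKM was 123.3 in naive and 98.98 at day 3. Most of that difference lay in Robo2 (44.3 and 31.3) and Epha6 (19.3 and 11.6). The EphB sum was 6.93 and 7.37 RPKM and the netrin receptor sum 32.5 and 30.4. For the 15 ligands the sum was 90.8 to 97.4 RPKM in naive, 84.3 to 90.7 at day 1, 82.1 to 83.0 at day 3 and 82.5 to 92.4 at day 7, so that naive and day 7 overlapped. After scaling, the naive ligand sum (86.6 to 102.3) overlapped day 1 (86.9 to 95.3) and day 7 (79.4 to 93.8) and lay above day 3 (79.4 to 85.1).

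**Figure D1:**
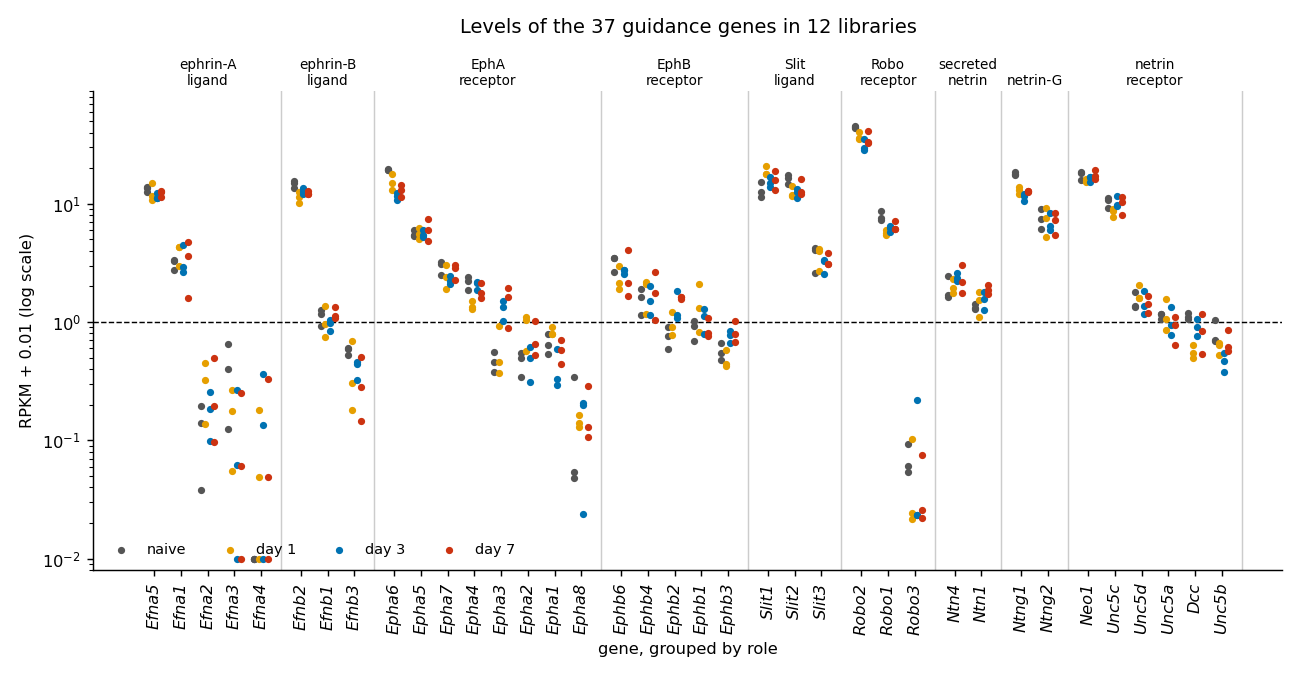
RPKM + 0.01 on a log axis of each of the 37 guidance genes in the 12 libraries, 1 point per library, coloured by group and ordered by role. The dashed line is 1 RPKM, below which 10 genes stay in the mean of every group, and Robo2 stands above all others at 44.3 RPKM in naive ganglia.

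In naive ganglia the order of levels was led by Robo2 (44.3 RPKM), Epha6 (19.3) and Ntng1 (17.98), and these 3 did not overlap between neighbours, except that Ntng1 overlapped Neo1 (17.6) below it. Slit2 (16.1), Efnb2 (14.7), Efna5 (13.4), Slit1 (13.1) and Unc5c (10.3) followed. From Ntng1 down to Slit1 each gene overlapped the next in its 3 naive libraries. Robo1 (7.86), Ntng2 (7.54), Epha5 (5.58), Slit3 (3.63), Ephb6 (3.202), Efna1 (3.14), Epha7 (2.92) and Epha4 (2.16) held the middle, and Ntn4, Ephb4, Unc5d, Ntn1, Unc5a, Dcc and Efnb1 lay between 1.11 and 1.90 RPKM. Of the 37 genes, 21 were at 1 RPKM or more in all 12 libraries and 8 averaged at least 10 RPKM over them.

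In all, 10 genes had a mean under 1 RPKM in all 4 groups: the ligands Efna2, Efna3, Efna4 and Efnb3 and the receptors Epha1, Epha2, Epha8, Ephb3, Robo3 and Unc5b. Efna4 was listed at 0 in the 3 naive libraries and reached 0.357 RPKM (9 reads) elsewhere. Robo3, a Robo family member known from commissural axons, ranged from 0.0118 to 0.209 RPKM, or 1 to 15 reads. Efna2 and Efna3 ranged up to 0.482 and 0.645 RPKM, Efnb3 up to 0.683, Epha8 up to 0.336, Epha1 up to 0.900 and Ephb3 up to 1.02 RPKM. Epha2 was tested only because 3 libraries exceeded 1 RPKM, namely day 1 replicates 1 and 3 and day 7 replicate 3. Its highest value was 1.09 and its lowest 0.301 RPKM.

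Unc5b, a netrin receptor of the repulsive Unc5 class that is also known from blood vessels, was under the test's filter. Its 3 naive libraries stood at 1.02, 0.680 and 0.696 RPKM. The day 1 libraries had 0.513, 0.654 and 0.627 RPKM, those of day 3 had 0.457, 0.366 and 0.539, and those of day 7 had 0.602, 0.559 and 0.851. Every day 1 and day 3 library was below every naive library, while day 7 overlapped naive, and only naive replicate 1 passed 1 RPKM. Unc5b had 34 to 86 reads per library. With no expression filter its log2 fold change was -0.23, -0.46 and -0.17 (limma adjusted p = 0.672, 0.198 and 0.826). None of the 14 vessel markers was called on any day (2, 0 and 1 at an unadjusted p under 0.05). Their summed level was 102.8 to 104.2 RPKM in naive, 101.8 to 104.9 at day 1, 91.8 to 109.5 at day 3 and 94.2 to 116.0 at day 7. Their log2 fold changes ranged from -1.03 to 0.28 at day 1 and from -0.81 to 0.23 at day 7. Cldn5 lay wholly below naive at day 1 and Rgs5 at day 7, and Vwf wholly above it at days 1 and 3. The part of vessel cells in the Unc5b values was not tested.

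Ntng1, on chromosome 3 (109780040 to 110144011, minus strand, GRCm38), encodes netrin-G1, which a lipid tail holds on the axon surface. Its naive libraries had 18.7, 17.5 and 17.7 RPKM. At day 1 they had 11.97, 13.8 and 13.1 RPKM, at day 3 10.4, 11.6 and 12.04, and at day 7 12.6, 12.9 and 12.7. All 9 injured libraries lay below all 3 naive ones, and day 7 lay within the range of day 1. The log2 fold change against naive was -0.45 (SE 0.11, limma adjusted p = 0.0326) at day 1, -0.67 (SE 0.11, adjusted p = 0.00168) at day 3 and -0.51 (SE 0.11, adjusted p = 0.0179) at day 7. Expressed as levels, the mean went from 17.98 ± 0.623 RPKM (SD, n = 3) to 13.0 ± 0.945, 11.4 ± 0.826 and 12.7 ± 0.184. Between the days no difference was called, and day 7 minus day 1 was -0.05 with a 95% interval from -0.29 to 0.18.

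The day 3 call of Ntng1 held under all 24 other settings (adjusted p from 0.000146 to 0.0115). The day 1 call was lost in 10 of 24 and the day 7 call in 7 of 24, with the direction kept in each. At day 1 the calls lost were those with the replicate block (adjusted p = 0.0710), with the 2 groups alone (0.0538), without both muscle-bearing libraries (0.108), and without naive replicate 1 (0.0864), 2 (0.107) or 3 (0.124), day 1 replicate 1 (0.161) or 3 (0.110) or day 3 replicate 2 (0.0505) or 3 (0.0503). At day 7 they were those with the 2 groups alone (0.0764), without both muscle-bearing libraries (0.147), and without naive replicate 1 (0.0544), 2 (0.0662) or 3 (0.0787) or day 7 replicate 2 (0.0639) or 3 (0.0692).

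The paralogue Ntng2 (netrin-G2) was not called on any day. Its level was 5.23 to 9.16 RPKM over the 12 libraries with overlapping groups, and its log2 fold change was -0.05, -0.13 and -0.12 on the 3 days, with 95% intervals of -0.45 to 0.35, -0.53 to 0.26 and -0.52 to 0.28. Whether Ntng1 and Ntng2 differed in response was not tested. Ntng1 made up 70.6% ± 3.24 (SD, n = 3) of the summed netrin-G level in naive and 64.2% ± 7.37, 62.2% ± 5.89 and 64.6% ± 4.78 on days 1, 3 and 7.

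Epha6, on chromosome 16 (59653483 to 60605531, minus strand), encodes a receptor of the ephrin-A ligands and was the highest Eph gene in the ganglion. The naive libraries were close together at 19.2, 19.2 and 19.6 RPKM. Day 1 gave 14.9, 17.9 and 13.2 RPKM, day 3 gave 10.8, 12.2 and 11.7, and day 7 gave 14.4, 13.1 and 11.5. Each injured library was below each naive one in deposited RPKM, with day 3 the lowest group; after scaling the day 1 libraries overlapped naive. At day 3 the log2 fold change was -0.74 (SE 0.15, limma adjusted p = 0.0103), held under all 24 other settings (0.000291 to 0.0492). At day 1 it was -0.33 (SE 0.15, adjusted p = 0.341) and at day 7 -0.59 (SE 0.15, adjusted p = 0.0606), so neither passed. The day 7 value passed under 8 of 24 other settings (limma adjusted p from 0.00467 to 0.238 over the 24). Of the 12 fits that left out 1 library 3 passed, without day 7 replicate 1 (0.0120), day 1 replicate 2 (0.0392) or day 1 replicate 3 (0.0381).

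No difference of Epha6 between days was called, and day 3 minus day 1 was -0.41 (95% interval -0.75 to -0.08, adjusted p = 0.373). Within the summed EphA level, Epha6 went from 61.0% ± 1.72 (SD, n = 3) in naive to 56.2% ± 2.59, 48.9% ± 0.954 and 49% ± 0.85. Exons of Epha6 share 107 bases with the antisense gene Gm9017, and as the sources do not state whether reads were counted by strand, reads of the pair cannot be told apart.

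**Figure D2:**
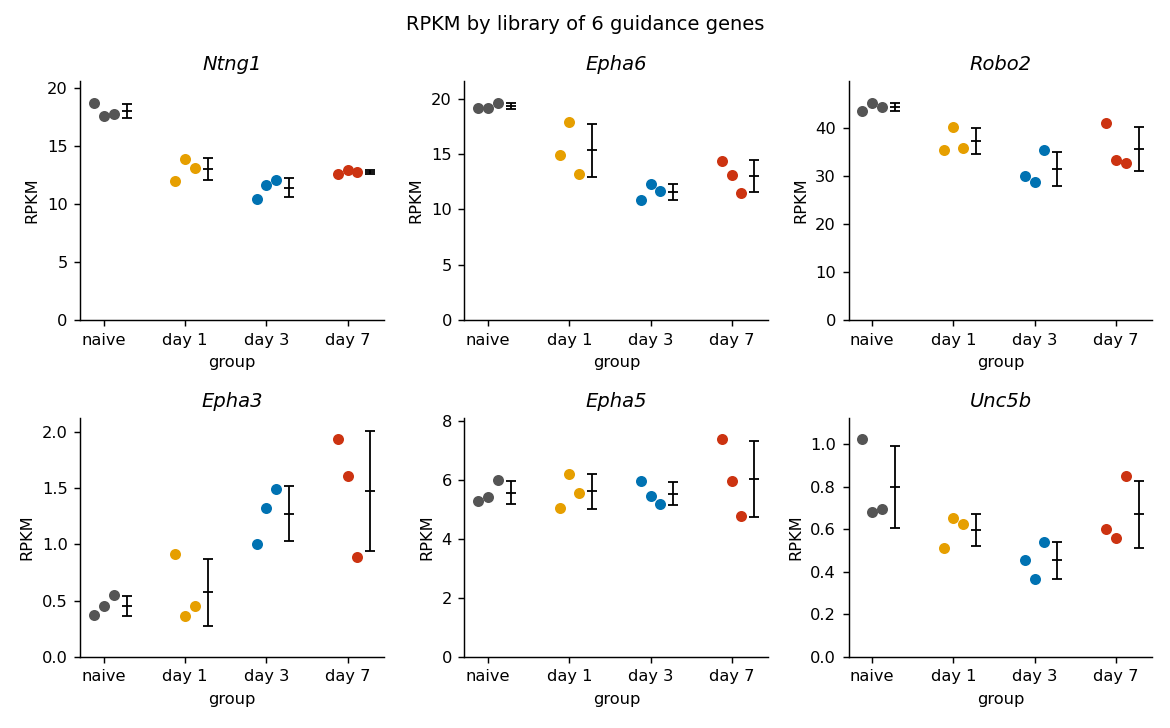
RPKM of 6 guidance genes by group, 1 point per library in replicate order, with the mean and SD of 3 libraries to the right of each group. Ntng1 and Epha6 lie at 17.5 RPKM or more in naive ganglia, with each injured library below the naive libraries of the same gene, whereas the Epha5 groups overlap.

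Cell type markers were read in the same model. Of the 12 sensory neuron markers 0, 1 and 1 fell on days 1, 3 and 7, with a median log2 fold change of -0.08, -0.24 and -0.30. At an unadjusted p under 0.05 there were 0, 5 and 7, counted in either direction. The estimate was above 0 for 3, 4 and 3 of the 12 markers, and ranged from -0.56 to 0.69 at day 3. Their summed level overlapped between all groups, from 2429 to 3180 RPKM in naive and from 1498 to 2468 at day 7. Of 6 tested macrophage markers, 0, 2 and 2 rose, and the sum of the 7 detected went from 10.9 to 13.0 RPKM in naive to 23.4 to 30.3 at day 3 and 24.98 to 30.6 at day 7. Of the 6 satellite glia markers 1 rose at day 1, 1 rose and 1 fell at day 3 and 0 were called at day 7. Of 8 fibroblast markers 1 fell at day 1, of 8 Schwann cell markers 0 were called on any day (0 also at an unadjusted p under 0.05), and 6 markers of spinal cord glia summed to 2.49 to 5.05 RPKM. The part of the marker values in the values of Ntng1 and Epha6 was not tested. In whole ganglia, fewer cells of a type and less RNA per cell cannot be told apart.

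Robo2, on chromosome 16 (73891839 to 74411825, minus strand), is a Slit receptor of sensory axons and had the highest level of the 37 genes in every library. It stood at 43.5, 45.2 and 44.2 RPKM in naive, 35.4, 40.2 and 35.8 at day 1, 29.9, 28.8 and 35.3 at day 3, and 40.9, 33.2 and 32.6 at day 7. Every injured library was below the naive ones in deposited RPKM; after scaling, day 1 and day 7 overlapped naive and day 3 did not. The log2 fold change was -0.25 (SE 0.15), -0.53 (SE 0.15) and -0.35 (SE 0.15), with limma adjusted p of 0.494, 0.0567 and 0.334, so no day passed. The day 3 value passed under 8 of 24 other settings (limma adjusted p from 0.00443 to 0.218 over the 24). Those that passed included voom on reads recovered from the values (0.0225). Of the 12 fits that left out 1 library 2 passed, without day 7 replicate 1 (0.00861) and without day 7 replicate 3 (0.0433).

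Robo1, the other tested Slit receptor, was at 7.35, 8.63 and 7.59 RPKM in naive and at 5.46, 5.65 and 5.96 at day 1. Its 6 later libraries lay between 5.71 and 7.07 RPKM. Robo1 had log2 fold changes of -0.42, -0.36 and -0.29 (adjusted p = 0.161, 0.203 and 0.433 in limma), so it passed on no day. The summed Robo level was 52.2 ± 1.5 RPKM (SD, n = 3) in naive, 42.9 ± 2.67 at day 1, 37.5 ± 3.77 at day 3 and 42.0 ± 5.22 at day 7. Robo2 kept 83.4% to 86.6% of that sum in the 4 group means.

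The promoters of the 3 genes with the most negative log2 fold changes at day 3 are shown so that their letters can be read beside the levels above. They come from the RefSeq table for GRCm38.p6, read 5′ to 3′ on the gene's own minus strand, at chr16:60605532-60605754 for Epha6, chr16:74411826-74412075 for Robo2 and chr3:110143615-110143644 for Ntng1, where only 30 bases are given because that window lies within the annotated gene, over an exon of Ntng1 in GENCODE. The Epha6 stretch has 223 bases, as its upstream (5′) side was cut where it meets an exon of Gm9017. Of the 3 Robo2 promoters listed in RefSeq the one at the annotated gene start is shown. Capitals mark a GC box (GGGCGG on either strand) or a CCAAT box (CCAAT on either strand).
Epha6: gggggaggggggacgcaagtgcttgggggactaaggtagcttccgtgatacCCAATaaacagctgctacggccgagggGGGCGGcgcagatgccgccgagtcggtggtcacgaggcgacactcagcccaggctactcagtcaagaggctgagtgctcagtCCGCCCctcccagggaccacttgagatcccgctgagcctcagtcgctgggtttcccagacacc
Robo2: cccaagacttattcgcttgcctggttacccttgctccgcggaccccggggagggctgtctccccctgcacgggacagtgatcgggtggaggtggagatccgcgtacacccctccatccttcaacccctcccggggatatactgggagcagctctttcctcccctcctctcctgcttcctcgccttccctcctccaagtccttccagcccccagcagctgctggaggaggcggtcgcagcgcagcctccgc
Ntng1: gccgggcgccgcGGGCGGgggctgggtagc
The Epha6 window held 2 GC boxes, at -145 to -140 and -63 to -58 from the start site, and a CCAAT box at -172 to -168. Robo2 held none of these in 250 bases, and the Ntng1 stretch is the one around its GC box at -160 to -155.

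RefSeq promoters were found for 32 of the 37 genes, which gave 37 promoters. A GC box lay within 250 bases upstream in 26 of the 37 (70.3%) and in 32.7% of all 32851 promoters. For the CCAAT box it was 13 of 37 (35.1%) and 33.8%, for the TATA box (TATAAA) 2 of 37 (5.41%) and 12.4%, and for the AP-1 motif (TGANTCA) 0 of 37 and 6.75%. All 4 were searched on both strands. These are matches of letters in a window and nothing more.

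Among the ephrin-A ligands, Efna5 and Efna1 were tested and neither was called. Efna5 was at 13.4 ± 0.656 RPKM (SD, n = 3) in naive and 12.5 ± 2.12, 11.6 ± 0.608 and 12.3 ± 0.753 after injury, with a 95% interval of -0.55 to 0.09 for the log2 difference at day 3. Efna1 ranged from 1.58 to 4.78 RPKM, and both of those extremes were day 7 libraries. Its log2 fold changes of 0.25, 0.03 and -0.06 had an SE of 0.26 each. Efna5 made up 73.7% to 78.6% of the summed ephrin-A level in the group means.

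Of the ephrin-B ligands, Efnb2 was at 14.7 ± 0.949 RPKM (SD, n = 3) in naive and 11.4 ± 1.28, 12.8 ± 0.75 and 12.4 ± 0.470 later. Its log2 fold change was -0.34, -0.21 and -0.26 (limma adjusted p = 0.188, 0.421 and 0.397). Efnb1 lay between 0.736 and 1.37 RPKM, with each day overlapping naive. Efnb2 carried 88.9% to 90.5% of the ephrin-B level, so within each ephrin class 1 gene held most of the measured RNA.

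Epha5, a receptor of ephrin-A ligands and on chromosome 5 (84054761 to 84417382, minus strand), had overlapping values in all groups. The naive libraries had 5.30, 5.42 and 6.02 RPKM and those of day 1 had 5.06, 6.22 and 5.57. At day 3 the values were 5.97, 5.47 and 5.195 RPKM and at day 7 they were 7.38, 5.96 and 4.79. The lowest and the highest library both belonged to day 7. Epha5 had log2 fold changes of 0.01, -0.04 and 0.07, with 95% intervals of -0.38 to 0.41, -0.43 to 0.36 and -0.33 to 0.46.

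Epha3, another receptor of ephrin-A ligands, had higher values at days 3 and 7 without passing the test. Its level was 0.368, 0.449 and 0.547 RPKM in naive, 0.915, 0.362 and 0.448 at day 1, 1.00, 1.32 and 1.49 at day 3 and 1.93, 1.61 and 0.885 at day 7. All 6 libraries of days 3 and 7 were above the naive ones, while day 1 overlapped them, on 21 to 124 reads per library. The log2 fold change was 0.14, 0.87 and 1.00 (SE 0.29 each, limma adjusted p = 0.880, 0.104 and 0.0892). Epha3 reached 1 RPKM in 5 libraries, all of days 3 and 7. It thus entered the test only through the groups where it was higher. The day 3 value passed under 4 of 23 other settings (limma adjusted p from 0.0284 to 0.263) and the day 7 value under 3 of 22 (0.0189 to 0.470). With voom on recovered reads the log2 fold change was 1.44 (adjusted p = 0.0284) at day 3 and 1.60 (0.0189) at day 7. Without day 7 replicate 3 the day 7 value was 1.27 (0.0339).

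The remaining EphA genes were not called. Epha4, which binds ligands of both ephrin classes, was at 2.16 ± 0.265 RPKM (SD, n = 3) in naive and 1.37 ± 0.107, 2.04 ± 0.173 and 1.83 ± 0.284 on the 3 days. Its 3 day 1 libraries were below all naive ones, with a log2 fold change of -0.50 (95% interval -0.89 to -0.12, limma adjusted p = 0.183). Epha7 lay between 1.90 and 3.22 RPKM, with log2 fold changes of -0.22, -0.34 and -0.11. Epha2 had 0.54, 0.00 and 0.34.

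Among the EphB receptors, Ephb2 had higher values later without passing. It was at 0.583 to 0.905 RPKM in naive, 0.762 to 1.199 at day 1, 1.07 to 1.84 at day 3 and 1.56 to 1.62 at day 7, so that days 3 and 7 lay above naive. Against naive the log2 fold change of Ephb2 was 0.23, 0.54 and 0.75 (limma adjusted p = 0.716, 0.205 and 0.0997). The day 7 value passed under 1 of 23 other settings, voom (1.09, 0.0223), with adjusted p up to 0.324 in the others. No naive library of Ephb2 reached 1 RPKM, so it was tested only through libraries of the injured groups. Ephb6, a family member without kinase activity, was the highest EphB gene and held 46.1% ± 1.68 (SD, n = 3) of the summed EphB level in naive, against 33.0% ± 4.35, 36.2% ± 2.01 and 32.7% ± 6.69. Its own log2 fold change was -0.40, -0.24 and -0.34, none of it called. Ephb1 (0.677 to 2.10 RPKM) and Ephb4 (1.02 to 2.66 RPKM) had overlapping groups.

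None of the 3 Slit genes, the ligands of the Robo receptors, was called. Slit1 was at 11.3, 15.3 and 12.5 RPKM in naive and at 17.9, 17.9 and 21.0 at day 1, with day 1 above every naive library. Days 3 and 7 ranged from 13.0 to 18.9 RPKM and overlapped naive. The log2 fold change of Slit1 was 0.53 (SE 0.16, limma adjusted p = 0.0971) at day 1, then 0.19 and 0.25, and voom gave 0.55 (0.0346) at day 1. The day 1 value passed under 2 of 24 other settings (adjusted p from 0.0208 to 0.327). Slit2 was at 16.1 ± 1.43 RPKM (SD, n = 3) in naive and 12.5 ± 1.37, 12.4 ± 1.103 and 13.6 ± 2.18 afterwards, with log2 fold changes of -0.35, -0.40 and -0.27 (adjusted p = 0.367, 0.226 and 0.575). Slit1 held 39.8% ± 2.90 of the summed Slit level in naive and 54.0% ± 5.06, 49.7% ± 3.70 and 48.3% ± 5.16 on the 3 days, and Slit3, at 2.52 to 4.26 RPKM, held 9.98% to 11% in the group means.

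The secreted netrins were low and not called. Ntn1, the founding netrin, was at 1.29 to 1.40 RPKM in naive and 1.71 to 2.03 at day 7, with a log2 fold change of 0.35 at day 7 (95% interval -0.04 to 0.74). Ntn4, a netrin of basement membranes, lay between 1.62 and 3.01 RPKM, with log2 fold changes of 0.07, 0.26 and 0.19. Their receptors were dominated by Neo1 and Unc5c. Neo1 (neogenin) was at 17.6 ± 1.41 RPKM (SD, n = 3) in naive and 15.7 ± 0.474, 16.3 ± 0.940 and 17.5 ± 1.68 later, with 95% intervals of the log2 difference of -0.45 to 0.15, -0.43 to 0.16 and -0.33 to 0.27.

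Unc5c was at 10.3 ± 1.07 RPKM (SD, n = 3) in naive and 8.51 ± 0.644, 10.3 ± 1.08 and 9.95 ± 1.80 later, with log2 fold changes of -0.26, -0.03 and -0.09. Dcc, the attractive netrin receptor, was at 1.19, 1.06 and 1.08 RPKM in naive and 0.486, 0.624 and 0.539 at day 1. The day 3 libraries had 0.900, 1.04 and 0.759 RPKM. All day 1 and day 3 libraries lay below all naive ones, and day 7 ranged from 0.526 to 1.16 RPKM. The log2 fold change of Dcc at day 1 was -0.61 (SE 0.24, limma adjusted p = 0.240), and voom on recovered reads gave -1.02 (0.0238). Dcc was not called at day 1 with the replicate block, the 2 groups alone or the GC content and length correction. Its 3 naive libraries all reached 1 RPKM, and without them Dcc would not have met the filter. Unc5a (0.623 to 1.56 RPKM) and Unc5d (1.16 to 2.03 RPKM) had no called difference.

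**Figure D3:**
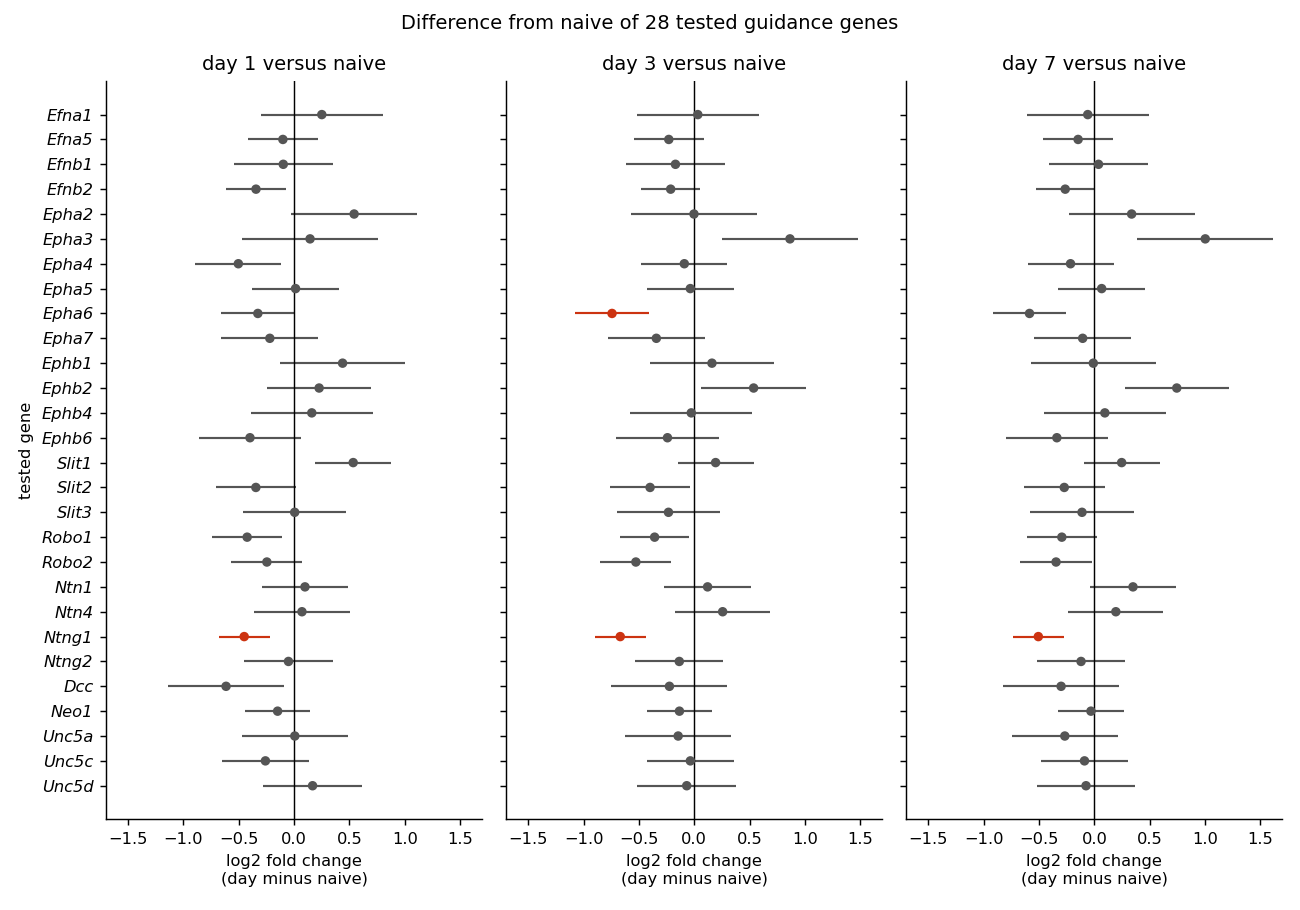
Log2 fold change against naive (points) with its 95% interval (lines) for the 28 tested guidance genes at days 1, 3 and 7, ordered by role. Red marks an adjusted p under 0.05, which Ntng1 has on each day (-0.45, -0.67 and -0.51) and Epha6 at day 3 (-0.74).

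Between the days no guidance gene was called in limma. The comparisons, in order, were day 3 against day 1, day 7 against day 1 and day 7 against day 3. At an unadjusted p under 0.05 there were 3, 2 and 0 of 28, against 1337, 1473 and 716 of all 14195 tested genes. At an adjusted p under 0.05 voom on recovered reads called 0 guidance genes in each. Over all genes 0.507%, 0.972% and 0% were called in these comparisons.

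The spread between replicates differed along the gene set. Within day 7 the highest library exceeded the lowest by at least 2 times for 5 of the 28 tested genes, against 0 in naive, 2 at day 1 and 1 at day 3. The pair of day 7 replicates 1 and 3, which had the lowest and the highest scaling factor of all libraries (0.9085 and 1.091) and was chosen after their values were seen, showed how these genes moved. Efna1, Ephb4 and Ephb6 were 3.02, 2.60 and 2.45 times as high in replicate 3 as in replicate 1, and Epha3 and Dcc 0.459 and 0.452 times. Across the 28 genes the log ratio rose with the GC content of the longest transcript (Spearman 0.86, Pearson 0.77) and was lower for longer genes (Spearman -0.73). Genes within a pair of libraries share their depth and are not independent, so no p is given. Ntng1 (46.5% GC) had a ratio of 1.01, Epha6 (48.0%) 0.799 and Robo2 (42.4%) 0.796.

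**Figure D4:**
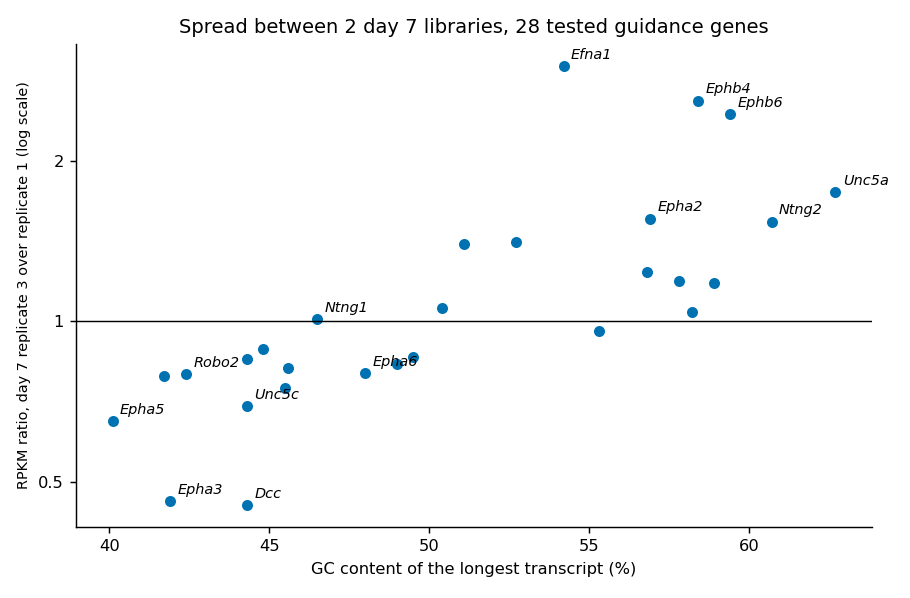
Ratio of RPKM in day 7 replicate 3 to replicate 1 (log axis) against GC content of the longest transcript for the 28 tested guidance genes, 1 point per gene. The line marks a ratio of 1, and the ratio is highest for Efna1 (3.02) and lowest for Dcc (0.452).

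Where each library's trend with GC content and length was removed from the log values, a correction added after seeing the data and possible for 95.2% of the tested genes, the SE of the Robo2 difference at day 3 went from 0.15 to 0.08. Ntng1 differed from naive by -0.43, -0.62 and -0.52 (limma adjusted p = 0.00906, 0.000563 and 0.00269), and Epha6 was called at day 3 (-0.73, 0.00277) and day 7 (-0.61, 0.0123). Robo2 was called at day 3 (-0.42, adjusted p = 0.00443) and day 7 (-0.34, 0.0233), Epha3 at day 3 (0.92, 0.0444) and day 7 (0.99, 0.0416), and Robo1 (-0.45, 0.0154) and Efnb2 (-0.38, 0.0478) at day 1. Epha3 passed the filter only through libraries of days 3 and 7, the groups where it was higher. For Epha3 the filter thus used the values that these calls compare. Counting Epha3, that made 3, 4 and 4 of the 28 genes on the 3 days. In the same fits 6.19%, 9.94% and 6.49% of all genes were called.

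A list of 40 partner genes of the same pathways (other ligands, co-receptors, adaptors and effectors) was taken through the same model, and 36 of them were tested. At day 1, 1 rose and 1 fell (5.56% called), and at days 3 and 7, 2 rose and 0 fell (5.56% each), against 3.43%, 5.67% and 2.92% of all tested genes, with medians of -0.03, -0.03 and 0.01. The numbers at an unadjusted p under 0.05 were 11, 12 and 5 (30.6%, 33.3% and 13.9%), against 14.9%, 17.8% and 12.9% of all tested genes.

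Flrt3, a membrane protein that binds Robo1 and the Unc5 receptors, rose the most. It stood at 12.3, 13.1 and 11.1 RPKM in naive and at 71.9, 52.5 and 59.9 at day 1. Day 3 libraries had 71.7, 75.6 and 65.9 RPKM and day 7 libraries 55.2, 63.3 and 51.1. All injured libraries were at least 51.1 RPKM, above the naive maximum of 13.1. Day 1 overlapped the other days, and the day 7 libraries lay below those of day 3, a difference that was not called (adjusted p = 0.947). Its log2 fold changes were 2.29, 2.47 and 2.14 (SE 0.14 each, limma adjusted p = 1.04e-06, 1.61e-07 and 7.55e-07), held under all 24 other settings on each day.

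Draxin, a secreted protein that binds netrin-1 and Dcc, rose later. It was at 0.429, 0.481 and 0.190 RPKM in naive and 0.483, 0.435 and 0.375 at day 1, then at 1.2, 1.53 and 1.63 at day 3 and 1.47, 1.71 and 1.95 at day 7. The naive and day 1 libraries overlapped, and all of days 3 and 7 lay above both, on 15 to 157 reads per library. Its 6 libraries at 1 RPKM or more were those of days 3 and 7. Draxin thus entered the test only through the groups where it was higher. With no expression filter it was also called at day 3 (1.16, limma adjusted p = 0.00314) and day 7 (1.34, 0.00178). On the log2 scale Draxin differed from naive by 0.12 at day 1 (adjusted p = 0.864), 1.17 at day 3 (SE 0.22, adjusted p = 0.00544) and 1.34 at day 7 (SE 0.22, adjusted p = 0.00287) in limma.

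Lrrc4c, the netrin-G ligand that binds netrin-G1, fell at day 1. It was at 21.8, 21.7 and 19.8 RPKM in naive and at 14.8, 15.1 and 16.5 at day 1. Days 3 and 7 ranged from 17.4 to 19.5 RPKM, below the naive libraries in deposited RPKM, though day 7 overlapped naive after scaling. In limma Lrrc4c differed by -0.43 on the log2 scale (SE 0.11, adjusted p = 0.0429), then -0.22 and -0.20 (adjusted p = 0.314 and 0.471). The day 1 call was lost in 13 of 24 other settings. Among them were those without naive replicate 1 (0.0999), 2 (0.159) or 3 (0.102), day 1 replicate 1 (0.169), 2 (0.0931) or 3 (0.0959), day 3 replicate 2 (0.0614) or 3 (0.0673), or day 7 replicate 2 (0.0558).

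**Figure D5:**
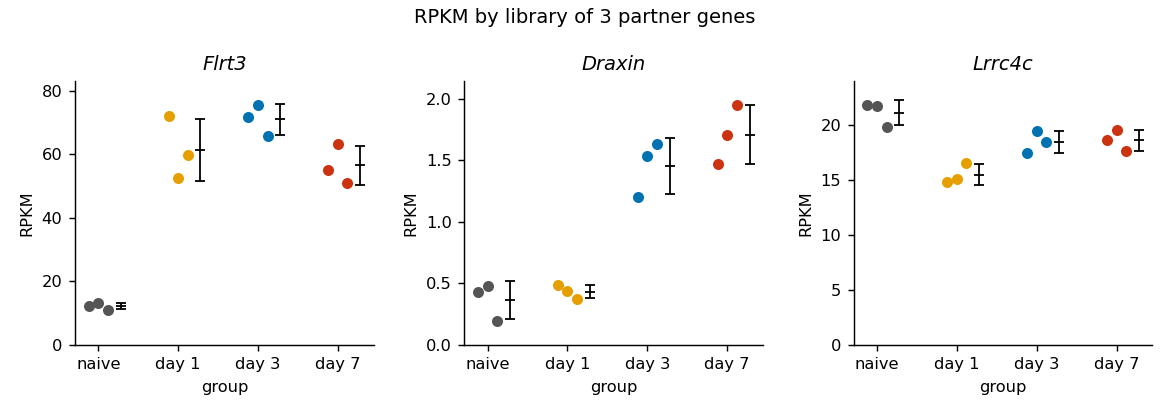
RPKM of the partner genes Flrt3, Draxin and Lrrc4c by group, 1 point per library in replicate order, with the mean and SD of 3 libraries to the right. Flrt3 is at 11.1 to 13.1 RPKM in naive and at 51.1 RPKM or more after injury.

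Exons of 8 of the 37 genes overlap an antisense gene in GENCODE, and their values cannot be separated from it without strand. Beside Epha6 these are Efna3, Efna4, Epha1, Ephb1, Ephb4, Unc5a and Unc5c, with 33 to 344 shared bases.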

How the data were processed

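RNA of dorsal root ganglia was sequenced in 12 libraries, 3 per group. Groups and replicate numbers came from the sample titles. The submitters' processing notes list limma, edgeR, HTSeq, STAR and bcl2fastq 2.17 and the mm10 build, with no role or order. The annotation, strand setting and other versions were not given in the sources used here. Per the labels, RNA was amplified from very low input, and without molecular identifiers reads cannot be taken as independent molecules. The values the authors deposited name no unit and were read as RPKM, because the steps between a gene's values matched whole reads. Whole reads were recovered for 21268 of 21597 detected genes (98.5%), within 0.05 reads.

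Gene symbols matched all 37 genes. Positions came from GENCODE M21. Libraries were scaled by trimmed means of log ratios (30% of ratios and 5% of levels trimmed at each end). limma 3.58.1 in R 4.3.3, with statmod 1.5.0, was fitted to log2(RPKM + 0.5) of 14195 genes that reached 1 RPKM in 3 or more libraries, with 4 group means, 8 residual degrees of freedom, a variance trend and robust moderation. All tests were two-sided, and p-values were adjusted by Benjamini-Hochberg over all tested genes, with a threshold of 0.05. With 3 libraries a side an exact permutation test cannot go below 0.1, so none was run. Python 3.11.15 with pandas 2.3.3, numpy 2.4.6 and matplotlib 3.10.9 was used for tables and plots.

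Genes described library by library were those called against naive or over the 4 groups, plus Epha5, Robo2 and Unc5b. Epha3, Robo1, Slit1 and Dcc were added after their values were seen. Partner genes were named where called. The guidance genes, the partner list and the marker lists were chosen with earlier results of these data known.

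Alternatives were pseudocounts of 0.1 and 1, no expression filter, a filter of 5 RPKM, no scaling, median of ratios scaling, a replicate block, voom on recovered reads, array weights, the compared groups alone, and leaving out libraries. A correction for GC content and length was added after the data were seen: each library's deviation from the gene mean was fitted over genes by splines of GC content and log2 length with 4 degrees of freedom each, and subtracted. With voom on recovered reads, 624, 1056 and 550 genes were called on days 1, 3 and 7, against 487, 805 and 415 in the model above.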

Additional observations from a re-analysis of the deposited data

Results flagged for a closer look

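Draxin, the secreted netrin-1 and Dcc partner, differed between the days in the test of the difference itself. Day 7 minus day 1 was 1.22 on the log2 scale (SE 0.22, 95% interval 0.75 to 1.69, limma adjusted p = 0.0173), with all 3 day 7 libraries (1.47 to 1.95 RPKM) above all 3 day 1 libraries (0.375 to 0.483 RPKM). Day 3 minus day 1 was 1.04 with an adjusted p of 0.0569. The numbers of reads were small, 33 to 40 per library at day 1 and 123 to 157 at day 7. No day 1 library reached the 1 RPKM of the filter, so Draxin was tested only through the libraries of days 3 and 7.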

How the results depend on the processing

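Of the 28 guidance genes, 1, 2 and 1 were called at days 1, 3 and 7 and 2 over the 4 groups. With voom on recovered reads these counts were 3, 4, 4 and 4 (4.40%, 7.44% and 3.88% of 14186 genes on the 3 days), with array weights 9, 6, 3 and 7 (13%, 13.8% and 5.85% of all genes on the 3 days), and with the GC content and length correction 3, 4, 4 and 4. Those of voom and of the correction include Epha3 at days 3 and 7, which passed the filter only through libraries of those days. With the 2 compared groups alone the counts were 0, 4 and 0, with no share over all genes computed. Nor was that share computed over the 4 groups under the other settings. Without naive replicate 1 and day 7 replicate 2, the libraries with raised muscle transcripts, they were 0 at day 1, 0 at day 7 and 0 over the 4 groups. In that fit 1.98% of all genes were called at day 1 and 1.18% at day 7. At day 7 the 5 RPKM filter gave 2 and no scaling 2 (3.82% and 3.22% of all genes), and over the 4 groups no expression filter gave 1. The 5 RPKM filter left fewer of the 28 genes in the test. Leaving out 1 library at a time gave 0 to 1, 2 to 3, 0 to 3 and 0 to 3. On the 3 days 1.54% to 4.37%, 3.18% to 7.67% and 1.66% to 3.67% of all genes were called in those fits. Between days the count was 0 under each setting. Partner genes called (2, 2 and 2) became 8 and 9 at days 1 and 3 with array weights. With the GC content and length correction they became 4 and 7 (6.19% and 9.94% of all genes). At day 1 they became 1 with no filter (1.87%), without the muscle-bearing libraries (1.98%) or with the 2 groups alone. At days 3 and 7 the 5 RPKM filter gave 1 (8.01% and 3.82%), as Draxin did not reach that filter and was not tested. Leaving out libraries gave 1 to 2, 2 to 3 and 2 to 2.

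With the replicate block, 0 guidance genes and 1 partner gene were called at day 1, when 2.55% of all genes were called in that fit. No pairing by replicate number was visible in the values, and a weaker one was not tested. Same-numbered libraries had correlated deviations of -0.34 to 0.234 over 18 pairs, of which 3 passed 0.1. Libraries of unlike number reached -0.35 and 0.298, and 2 of 12 libraries were closest to their own number. No value called against naive changed direction under any setting that gave it. Uncalled values near 0 did for other genes, and that of Draxin at day 1 (0.12) was -0.03 without naive replicate 3. Genes with few reads, such as Epha3, Draxin and Unc5b, are limited by depth, and log2(RPKM + 0.5) shrinks their changes. The cause of the moved counts was not tested.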
